A study of Rattus with 6 samples.

Results

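Arc, the activity-regulated cytoskeleton-associated gene, was followed across 6 RNA sequencing libraries of RC-4B/C, a rat pituitary adenoma cell line. It is 1 of 12801 genes and 1 of 118147 exon rows in the deposited table, taken by its gene name. It was chosen by its measured level in this comparison, where it is among the genes lowest with aspirin, so its own difference between the groups is given as a description with no test. The groups were 3 libraries of cells treated with ASA (acetylsalicylic acid, or aspirin), a drug that blocks cyclooxygenases, and 3 of control cells labelled DMSO, the solvent dimethyl sulfoxide. The labels give no dose or duration and do not say whether libraries came from separate cultures, so p-values measure only the spread between these libraries, which may be technical. The design also names the GH3 pituitary line, which was not analysed here. Replicate numbers only name the libraries.

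Arc is an immediate early gene, one whose transcription starts within minutes of synaptic or growth factor signals without the need for newly made protein. CREB, SRF and MEF2 factors act on its enhancer and promoter, downstream of calcium, cAMP and MAP kinase signalling. The protein descends from a retrotransposon Gag protein, can assemble into capsids, and in neurons promotes the endocytosis of AMPA-type glutamate receptors. Its transcript carries introns after the stop codon and is a known target of nonsense-mediated decay.

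The Arc row (ENSRNOG00000043465) is 1 listed exon of 1188 bases on the minus strand of chromosome 7, from 115909138 to 115910325 in Rnor_6.0. Its length is a multiple of 3, as are the summed lengths of most genes in the table, so it is read here as a coding length. The untranslated parts and their introns are outside it, and the row carries no separate measure of splicing or decay. No other listed row overlaps it (0 rows), and all 6 of its values are whole reads. Nol3, an apoptosis repressor that shares the alias Arc, has a row of its own and was not counted as Arc. Nol3 stood at 49.2, 89.4 and 97.2 RPKM (reads per kilobase of listed exon, scaled to library depth) in ASA replicates 1, 2 and 3, and at 30.3, 72.0 and 41.0 RPKM in the DMSO replicates.

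Before the Arc values, 1 library needs naming. ASA replicate 2 stood apart on the first principal component of all tested genes (62.1% of the variance), at 95.5 against 2.24 and 30.5 for the other ASA libraries and -51.4 to -30.6 for DMSO. Its depth was the lowest, 66492446 reads against 82189700 to 94486062 in the other 5. It had 5.44% of its reads on mitochondrial genes against 2.65% to 3.22%, and 497 listed exons without a read against 4 to 13. The Arc fold and the count of calls over all genes are given with and without it. So are the calls over the activity-regulated lists and over the other pathway lists pooled. The spread of Arc, the profile comparison and most results of single genes are given with it only.

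Arc was high and nearly equal in the control cells and lower in every aspirin library, by very different amounts. With DMSO it stood at 98.2, 109.7 and 98.4 RPKM in replicates 1, 2 and 3, from 11027, 10710 and 10756 reads. With ASA it stood at 31.5, 0.949 and 7.76 RPKM, from 3446, 75 and 805 reads. The groups did not overlap, and the lowest DMSO library was 3.12 times the highest ASA library. For scale, every ASA library lay below every DMSO library for 2351 of the 12502 genes tested (18.8%). Measured against the DMSO mean, Arc was 3.24-fold lower in ASA replicate 1, 107.6-fold lower in replicate 2 and 13.2-fold lower in replicate 3. Counting error was small beside these gaps. The exact 95% Poisson interval, which covers counting error only, was 0.747 to 1.19 RPKM in ASA replicate 2, 7.23 to 8.31 in replicate 3 and 30.5 to 32.6 in replicate 1. In bulk samples such as these, fewer cells that express Arc and less Arc RNA per cell cannot be told apart.

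**Figure D1:**
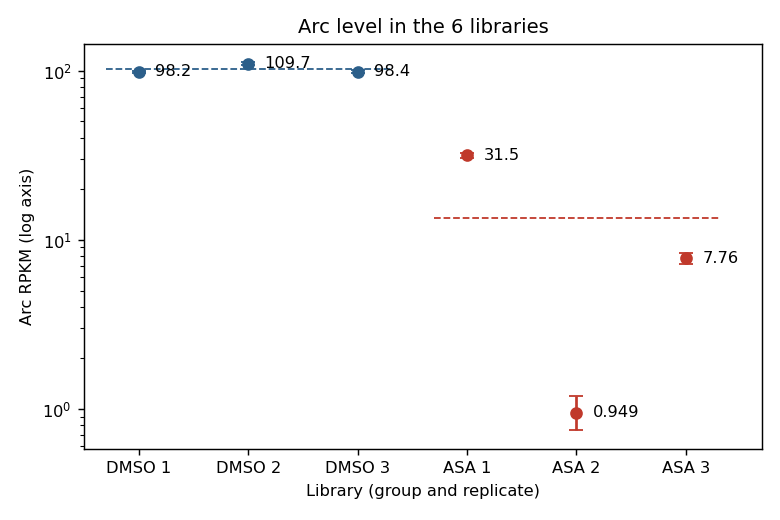
Arc RPKM on a log axis in the 3 DMSO (blue) and 3 ASA (red) libraries, with exact 95% Poisson intervals of the read counts as bars and each group's mean RPKM as a dashed line. The DMSO points lie between 98.2 and 109.7, and the ASA points at 31.5, 0.949 and 7.76.

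The group means were 13.4 ± 16.0 RPKM with ASA and 102.1 ± 6.55 RPKM with DMSO (SD, n = 3 each). On the scale of log2(RPKM + 0.1) the ASA mean was lower by a difference of -3.998, a 16.0-fold lower level, and 6 of the 12502 tested genes had a lower value. The ratio of the mean RPKM was 7.62, since ASA replicate 1 carries most of the ASA mean. The size of the gap rests on which ASA library is counted. It was 6.48-fold without ASA replicate 2 and 35.6-fold without ASA replicate 1. Without ASA replicate 3 it was 17.7-fold, and it lay between 15.4-fold and 16.3-fold without any 1 DMSO library.

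In rank, Arc passed from the upper part of the transcriptome to the lower part. With DMSO, 85.8%, 88.3% and 85.9% of the listed genes were below it in replicates 1, 2 and 3. With ASA, 59.6%, 9.37% and 27.3% were below it. Arc thus stayed above the median gene in ASA replicate 1 and was among the least expressed genes in ASA replicate 2.

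Arc differed little between control libraries and much between aspirin libraries. Its highest ASA value was 33.2 times its lowest, and its highest DMSO value 1.12 times its lowest. The SD of log2(RPKM + 0.1) was 2.47 over the ASA libraries, larger than that of 99.8% of tested genes, with 20 genes above it. Over the DMSO libraries the SD was 0.09, and 9776 genes had a larger one. Counting Arc, 3 tested genes were at least as even with DMSO and at least as spread with ASA. In order of level, ASA replicate 1 was highest, replicate 3 next and replicate 2 lowest. That order also held for 287 of the 624 genes that fell in the test described below (46.0%), for 73 of the 776 that rose (9.41%) and for 4569 of all 12502 tested (36.5%).

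**Figure D2:**
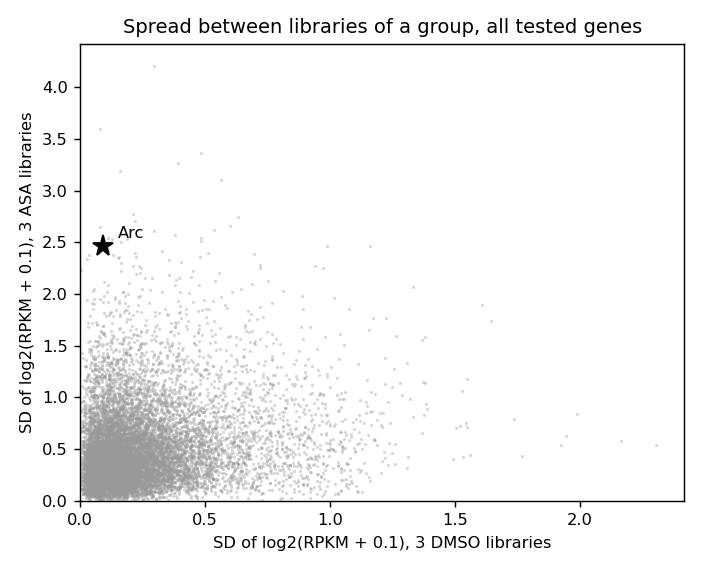
Each grey point is 1 tested gene, placed by the SD of its log2(RPKM + 0.1) over the 3 DMSO libraries (horizontal) and over the 3 ASA libraries (vertical), and the star is Arc. Arc sits at 0.09 and 2.47, near the left edge and above almost all other genes.

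Arc rests on 1 exon, so the scatter of exons of like size is described here. Exons of 900 to 1500 bases that averaged 1 RPKM or more, in genes with at least 4 listed exons (654 exons), were compared with the median exon of their own gene. The SD of that deviation was 0.70 on the log2 scale in ASA replicate 2, 0.18 and 0.23 in ASA replicates 1 and 3, and 0.09 in each DMSO library. In ASA replicate 2, 5 of these exons lay more than 2 log2 units under their gene and 0 lay more than 3 under, the lowest at -2.99. Arc itself stood -6.60 from its DMSO mean there, -3.70 in ASA replicate 3 and -1.69 in ASA replicate 1. These Arc values hold the whole change of the gene, whereas the exon deviations leave out the change of their gene. The 2 measures are unlike, and the part of exon scatter in the Arc values was not tested. Those of the 12502 tested genes that have 1 listed exon (1498 genes) had a median log2 difference of -0.17, against -0.05 for the 11004 genes with several.

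The other genes were tested with limma on log2(RPKM + 0.1) over all 12502 genes, at a Benjamini-Hochberg adjusted p under 0.05. That test called 1400 genes (11.2%), of which 776 rose (6.21%) and 624 fell (4.99%), with a median log2 difference of -0.06 over all tested genes. An unadjusted p under 0.05 was reached by 30% of the tested genes. Without ASA replicate 1 it called 982 genes higher (7.86%) and 1036 lower (8.3%), and without ASA replicate 2 it called 2618 genes, 1608 higher (12.8%) and 1010 lower (8.07%). Without ASA replicate 3 or DMSO replicate 3 it called 0 genes, with 2924 (23.4%) and 2342 (18.7%) at an unadjusted p under 0.05 and smallest adjusted p-values of 0.0806 and 0.0790. Without DMSO replicate 1 it called 91 genes, with 2569 (20.6%) at an unadjusted p under 0.05, and without DMSO replicate 2 it called 632. The voom method on the recovered reads called 1382 genes with all 6 libraries.

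Activity-regulated transcription factors, genes that are switched on beside Arc in stimulated cells, were more often higher than lower with ASA. The table holds 24 such genes, of which 22 passed the filter on low values, and 7 rose, 1 fell and 14 did not pass the test. The shares of all tested genes were 6.21% higher and 4.99% lower. The median log2 difference of the 22 factors was 0.68, and 19 of the 22 values were positive. Fosl2, an AP-1 subunit of the Fos family, stood at 214, 187 and 260 RPKM with ASA and at 103, 114 and 95.2 RPKM with DMSO, 2.097-fold higher (limma adjusted p = 0.0206). With DMSO, Arc and Fosl2 were level, at 0.951 to 1.03 Arc RPKM for each Fosl2 RPKM. With ASA that ratio was 0.00508 to 0.147. The groups did not overlap in Arc alone, which was chosen on this contrast, so the gap in the ratio is no separate evidence. Because 47.6% of the Fosl2 exon values did not come out as whole reads, part of its signal was shared out between features and its level is uncertain.

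Jun, the central AP-1 subunit, stood at 30.97, 116.5 and 58.3 RPKM with ASA and at 11.1, 16.1 and 10.7 RPKM with DMSO. It was highest in ASA replicate 2, the library where Arc was lowest, and 4.76-fold higher by the log2 means (limma adjusted p = 0.0285). Atf3, a stress-induced factor, rose 10.6-fold, from 8.85 ± 5.63 to 101.4 ± 80.1 RPKM (SD, n = 3 each, limma adjusted p = 0.0233). Per2, a clock gene with CREB sites, rose 2.68-fold from 9.86 ± 1.42 to 27.1 ± 6.97 RPKM, and the Fos family member Fosl1 rose 2.96-fold from 9.86 ± 1.81 to 30.1 ± 10.1 RPKM (SD, n = 3 each, limma adjusted p = 0.0235 and 0.0240). Klf6 and Maff, a zinc finger and a small Maf factor, also rose, 4.84-fold and 3.53-fold. Crem, whose products include the inducible cAMP repressor, was the factor that fell, 2.17-fold from 16.9 ± 1.91 to 7.85 ± 1.82 RPKM (SD, n = 3 each, limma adjusted p = 0.0388). Its lowest value, 6.01 RPKM, was in ASA replicate 2.

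Other immediate early genes of the list did not pass the test or were too low for it. Fos stood at 7.51, 4.56 and 7.49 RPKM with ASA and at 7.29, 6.02 and 7.31 RPKM with DMSO, a log2 difference of -0.10 ± 0.30 (SE, limma adjusted p = 0.835). The Fos groups overlapped, and Arc RPKM per Fos RPKM was 13.5 to 18.2 with DMSO and 0.208 to 4.196 with ASA. Egr1, a zinc finger factor, stood at 5.03, 3.15 and 10.6 RPKM with ASA and at 1.99, 3.30 and 1.69 RPKM with DMSO. Its log2 difference was 1.27 ± 0.49 (SE, limma adjusted p = 0.131), and without ASA replicate 2 it was called, at 1.67 (limma adjusted p = 0.0368). Junb had a log2 difference of 0.60 and the orphan receptor gene Nr4a1 of 0.11 (limma adjusted p = 0.1197 and 0.831). Fosb was low in both groups, at 2.33 and 1.77 RPKM on average. Npas4, a factor of neuronal activity, was at most 0.247 RPKM in any library and was not tested. Egr2 and Egr3 were not analysed here.

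The count of called factors depended on the libraries. It was 11 higher and 1 lower without ASA replicate 2, where 12.8% and 8.07% of all tested genes were called. It was 3 higher and 0 lower without DMSO replicate 2, where 313 of all 12500 tested genes were called higher and 319 lower. It was 0 in the fits lacking ASA replicate 3, DMSO replicate 1 or DMSO replicate 3. In those 3 fits 10, 11 and 9 of the 22 had an unadjusted p under 0.05 in limma, against 23.4%, 20.6% and 18.7% of all tested genes.

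Activity-regulated effectors, the enzymes, scaffolds and secreted proteins of the same response, were more mixed. Of 30 tested, 4 rose, 1 fell and 25 did not pass the test, beside 6.21% higher and 4.99% lower of all tested genes. The median log2 difference of the 30 was 0.03. Dusp4, a phosphatase that switches off MAP kinases, rose 4.41-fold from 24.2 ± 0.898 to 109.7 ± 27.6 RPKM (SD, n = 3 each, limma adjusted p = 0.01). Rasd1, a small GTPase induced by glucocorticoids, was the effector that fell. It stood at 9.93, 6.48 and 6.34 RPKM with ASA and at 40.4, 95.8 and 54.8 RPKM with DMSO, 7.94-fold lower (limma adjusted p = 0.0119). Unlike Arc, Rasd1 was about equal in ASA replicates 2 and 3. Arc RPKM per Rasd1 RPKM was 1.15 to 2.43 with DMSO and 0.147 to 3.17 with ASA, so the groups overlapped in that ratio.

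Ppp1r15a, which directs the dephosphorylation of eIF2alpha, rose 6.01-fold, the vesicle protein gene Syt4 2.16-fold and the kinase gene Plk3 3.37-fold (limma adjusted p = 0.0159, 0.0273 and 0.0275). For Plk3, 26.7% of the exon values did not come out as whole reads, so its level is uncertain, as for Fosl2. Homer1, a postsynaptic scaffold, stood at 13.9, 3.06 and 9.39 RPKM with ASA and at 21.1, 14.1 and 16.5 RPKM with DMSO. All 3 ASA values of Homer1 lay below all 3 DMSO values and were lowest in replicate 2, but its log2 difference of -1.19 ± 0.52 did not pass the test (SE, limma adjusted p = 0.174). Bdnf, a neurotrophin, stood at 24.6, 7.46 and 22.1 RPKM with ASA and at 10.5, 11.6 and 8.78 RPKM with DMSO. Without ASA replicate 2 it was called, at a log2 difference of 1.18 (limma adjusted p = 0.0132), against 0.64 with all libraries (limma adjusted p = 0.374). Nptx2 and Ptgs2 were not analysed here.

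Over both lists, 11 of the 52 tested genes rose and 2 fell, where 6.21% and 4.99% of all tested genes did. Of the 52, 0 had a log2 difference below that of Arc, the next being -2.99 for Rasd1. Arc was chosen for its low level with aspirin, so its place and its fall in rank among these genes are description only. All ASA values lay above all DMSO values for 21 of the 52 and below them for 6, against 19.9% and 18.8% of all tested genes. By mean RPKM Arc was 8th of these 53 genes with DMSO and 43rd with ASA. Without ASA replicate 2, 5 effectors rose and 3 fell, where 12.8% and 8.07% of all tested genes did. Without ASA replicate 3 or DMSO replicate 3, 0 effectors were called. Without DMSO replicate 1, 2 effectors were, where 91 of all 12499 tested genes were called. In the fits with 0 calls, 7 and 6 effectors had an unadjusted p under 0.05 in limma, against 23.4% and 18.7% of all tested genes.

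**Figure D3:**
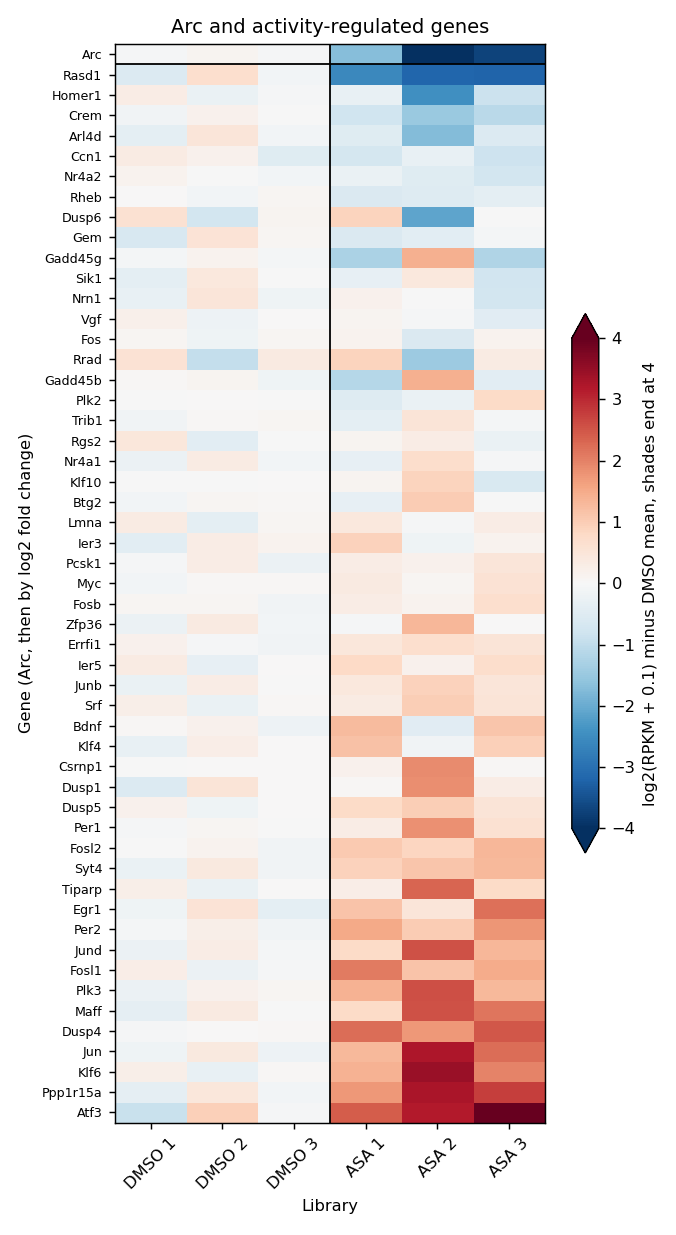
Difference of log2(RPKM + 0.1) from the DMSO mean in each library (columns, DMSO left and ASA right) for Arc (top row) and the 52 tested activity-regulated genes, ordered by log2 fold change, with red higher, blue lower and shades ending at 4. Arc is the lowest of the rows in ASA replicates 2 and 3, and Rasd1 is the lowest in ASA replicate 1 (-2.57 against -1.69 for Arc). In all 3 ASA libraries 21 genes are higher than in any DMSO library, as are 19.9% of all tested genes.

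Of 19 tested factors that act on the Arc enhancer and promoter, 2 rose, 0 fell and 17 did not pass the test. Among all tested genes 6.21% rose and 4.99% fell. The median log2 difference of the 19 was 0.47. Mef2a, a MADS-box factor, stood at 80.7, 124.7 and 109.8 RPKM with ASA and at 48.4, 44.6 and 42.4 RPKM with DMSO, 2.29-fold higher (limma adjusted p = 0.0204). Crtc3, a coactivator of CREB, rose 2.63-fold from 9.17 ± 1.40 to 24.4 ± 4.78 RPKM (SD, n = 3 each, limma adjusted p = 0.0209). Creb1 itself was at 5.72 ± 1.48 RPKM with ASA and 5.44 ± 0.213 with DMSO (SD, n = 3 each). The log2 differences of Creb1, Crtc1, Crtc2, Mef2d and Srf were 0.04, -0.14, 0.69, 0.55 and 0.62, and none of these 5 passed the limma test (adjusted p = 0.931, 0.632, 0.208, 0.214 and 0.136). The MEF2 repressor gene Hdac5 and the E-box factor gene Tcf4 had log2 differences of 1.22 and -0.85, just short of a call (limma adjusted p = 0.0504 and 0.0574).

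In cAMP and calcium signalling to CREB, 1 of 30 tested genes rose and 3 fell, where 6.21% and 4.99% of all tested genes did. Their median log2 difference was -0.22. Pde4b, a cAMP phosphodiesterase, stood at 4.61, 0.800 and 2.88 RPKM with ASA and at 12.1, 10.1 and 14.2 RPKM with DMSO, 5.21-fold lower (limma adjusted p = 0.0420). For Pde4b, as for Arc, ASA replicate 1 was the highest of the ASA libraries and replicate 2 the lowest. Camk2g and Camk2d, subunits of the calcium/calmodulin kinase II, moved apart, 2.41-fold lower and 1.84-fold higher (limma adjusted p = 0.04005 and 0.0431). Camk2g rests on 1 listed exon of 65 bases.

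In MAP kinase signalling to SRF, 2 of 22 tested genes rose and 0 fell, where 6.21% and 4.99% of all tested genes did. Their median log2 difference was 0.06. Spry2, a feedback inhibitor of receptor signalling, rose 1.64-fold from 19.3 ± 0.766 to 31.8 ± 2.56 RPKM (SD, n = 3 each, limma adjusted p = 0.0483). The kinase genes Braf and Map2k2 had log2 differences of 1.03 and -0.80 and did not pass the test (limma adjusted p = 0.0546 and 0.102).

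Genes for partners and turnover of the Arc protein gave 1 higher and 2 lower of 27 tested, against 6.21% and 4.99% of all tested genes. Their median log2 difference was 0.07. Sh3gl2, which codes for an endophilin that takes part in endocytosis, rose 2.66-fold from 8.24 ± 0.791 to 23.04 ± 8.69 RPKM (SD, n = 3 each, limma adjusted p = 0.0321). The other endophilin genes of the list had negative log2 differences and were not called. Cfl1, an actin-severing protein gene, fell 1.90-fold (limma adjusted p = 0.0407). The scaffold gene Dlg4 and the ubiquitin ligase genes Rnf216 and Ube3a had log2 differences of 0.53, 0.23 and -0.44 (limma adjusted p = 0.0936, 0.511 and 0.336).

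Of the nonsense-mediated decay and exon junction genes, 0 of 19 were called by limma, with 8 at an unadjusted p under 0.05, where all tested genes had 30%, and 1 called by voom. Their median log2 difference was -0.36, and 13 of the 19 values were negative. Upf3a stood at 53.9, 22.1 and 50.5 RPKM with ASA and at 90.3, 97.5 and 95.1 RPKM with DMSO, without overlap, at a log2 difference of -1.27 (limma adjusted p = 0.0513). The junction core gene Magoh was at -1.07, the helicase gene Upf1 at -0.50 and the junction gene Eif4a3 at -0.64 (limma adjusted p = 0.0538, 0.207 and 0.121). In this group 2 genes were called lower without ASA replicate 2, where 8.07% of all tested genes were. Without ASA replicate 1 it held 1 called higher and 2 lower, where 7.86% and 8.3% of all tested genes were called higher and lower.

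Of 7 tested genes with a Gag origin like that of Arc, 0 were called by limma, with 0 at an unadjusted p under 0.05 and 0 called by voom. Without ASA replicate 1, where 7.86% of all tested genes were called higher, 1 of the 7 was. Pnma2, which codes for a capsid-forming relative, stood at 8.36, 0.537 and 4.12 RPKM with ASA and at 12.04, 6.97 and 9.28 RPKM with DMSO. The Pnma2 groups overlapped, with its lowest value in ASA replicate 2, and its log2 difference was -1.72 ± 0.86 (SE, limma adjusted p = 0.223). Over the 6 lists from the Arc enhancer factors to the Gag-derived genes, 11 of 124 tested genes were called with all libraries and 26 without ASA replicate 2. Among all tested genes, 11.2% were called with all libraries, and 12.8% higher and 8.07% lower without ASA replicate 2. The list count was 0 in the fits lacking ASA replicate 3, DMSO replicate 1 or DMSO replicate 3. In those fits 32, 24 and 19 had an unadjusted p under 0.05 in limma, where all tested genes had 23.4%, 20.6% and 18.7%. Without DMSO replicate 2 the list count was 1, where 632 of all 12500 tested genes were called.

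The genes nearest to Arc in profile were found by the root mean square difference between log2 profiles over the 6 libraries. Each profile was taken from its own DMSO mean. The search covered 11044 genes that averaged 1 RPKM or more and had a symbol that is not a placeholder. Genes with placeholder symbols, such as those starting with LOC or RGD, were not compared. The nearest genes were chosen for their likeness to Arc in this same contrast, so their differences carry no test. Pik3r3, a regulatory subunit of phosphoinositide 3-kinase on chromosome 5, was nearest, at 0.267 against a median of 3.10 over all genes compared. It stood at 40.9, 1.47 and 11.3 RPKM with ASA and at 114.8, 112.9 and 109.6 RPKM with DMSO. Arc and Pik3r3 were thus high, low and between in the same libraries, and Arc RPKM per Pik3r3 RPKM was 0.647 to 0.769 with ASA and 0.856 to 0.972 with DMSO. Pearson's r between the profiles was 0.9994 over 6 libraries that share their depth and their groups.

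The next 7 were Lrrn4, Slc16a3, Gpr139, Pcdh18, Kb15, Chrna2 and St18, at differences of 0.681 to 0.989. Gpr139, Kb15 and Chrna2 averaged 0.617, 0.284 and 0.328 RPKM with ASA and 6.43, 2.19 and 2.61 RPKM with DMSO. They passed the filter of 1 RPKM only through the DMSO libraries, and the pseudocount of 0.1 bounds their fall, so their likeness to Arc is uncertain. Lrrn4, a leucine-rich repeat neuronal protein gene, stood at 11.04, 1.26 and 7.36 RPKM with ASA and at 72.9, 73.2 and 139.9 RPKM with DMSO. Slc16a3, a lactate transporter gene, stood at 10.6, 0.617 and 4.002 RPKM with ASA and at 16.2, 29.1 and 34.0 RPKM with DMSO. St18, a zinc finger factor gene, stood at 2.90, 0.755 and 2.06 RPKM with ASA and at 16.1, 18.6 and 27.995 RPKM with DMSO. In Lrrn4, Slc16a3 and St18, all chosen for likeness to Arc, ASA replicate 1 was the highest of the ASA libraries and replicate 2 the lowest. Their DMSO libraries were less even than those of Arc. When genes were ranked by Pearson's r, 1 of these 8 (Pik3r3) was again among the first 8.

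**Figure D4:**
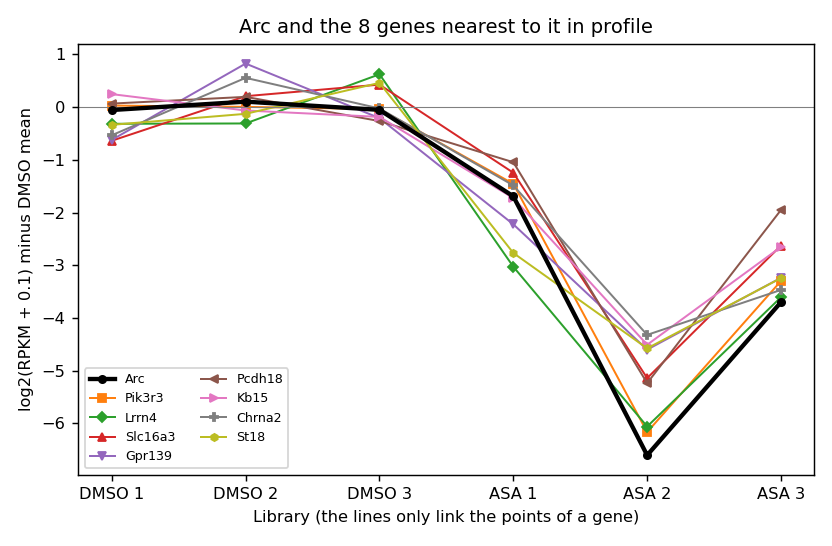
Difference of log2(RPKM + 0.1) from the DMSO mean in each library for Arc (black) and the 8 genes nearest to it in profile, with lines that only link the points of a gene. Pik3r3 runs almost on the Arc line, and all 9 genes have their lowest point in ASA replicate 2, where 8 of them were chosen for likeness to Arc.

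The neighbours of Arc on chromosome 7 were set beside it. On the side of higher coordinates the nearest listed genes were Jrk at 32.7 kb, Them6 at 46.0 kb, Slurp1 at 51.6 kb and Lynx1 at 76.0 kb, and on the other side the nearest was Ptp4a3, at 906.6 kb. Jrk, which codes for a nuclear protein of transposon origin, stood at 12.4, 0.990 and 7.19 RPKM with ASA and at 12.1, 9.39 and 11.2 RPKM with DMSO. The Jrk groups overlapped, ASA replicate 1 being the highest of the 6 libraries and replicate 2 the lowest, at a log2 difference of -1.24 ± 0.81 (SE, limma adjusted p = 0.338). Them6 fell 2.08-fold from 79.1 ± 21.04 to 37.0 ± 2.82 RPKM (SD, n = 3 each, limma adjusted p = 0.0360), and was even over the ASA libraries, at 36.2, 34.6 and 40.1 RPKM. Lynx1, a modulator of nicotinic receptors, was at -1.68 ± 0.51 and Slurp1 at -0.39 ± 0.56 (log2, SE, limma adjusted p = 0.0708 and 0.669). The 4 neighbours on the other side, Ptp4a3, Slc45a4, Dennd3 and Ptk2, had log2 differences of -0.68, -0.66, -0.20 and -0.22, and none passed the limma test (adjusted p = 0.338, 0.186, 0.651 and 0.542). Arc lay below all 8 neighbours in log2 difference, a place that its choice on this contrast largely sets. Them6 was called in neither the fit lacking ASA replicate 3 nor any fit lacking a DMSO library.

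**Figure D5:**
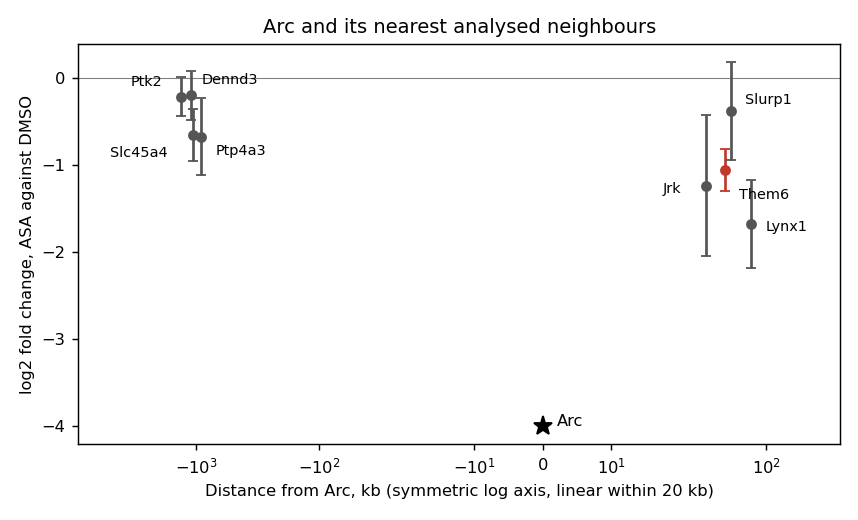
Log2 fold change of ASA against DMSO (vertical, bars are the standard error of the limma fit) by distance from Arc in kb (horizontal, symmetric log axis) for the 4 nearest analysed genes on each side, with the star for Arc and red for Them6, the neighbour that passed the test. The neighbours lie between -1.68 and -0.20, and Arc lies at -3.998.

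Marker genes were read beside Arc, and their part in its level was not tested. Markers of pituitary endocrine cells (10 of 15 in the table) summed to 21560 to 65100 RPKM with ASA and 27820 to 67700 with DMSO. Of these, Cga, the common subunit of glycoprotein hormones, fell 9.84-fold and the prohormone convertase gene Pcsk2 fell 2.35-fold (limma adjusted p = 0.0137 and 0.0232). Neuron markers (9 of 14, with Rbfox3, Camk2a, Gad2, Nefl and Neurod6 not analysed here) summed to 436.9 to 615.0 RPKM with ASA and 491.6 to 635.4 with DMSO. Of these, Gad1 rose 5.14-fold, Map2 2.01-fold and Nefm 3.54-fold (limma adjusted p = 0.0317, 0.0297 and 0.0288). The log2 difference was positive for 6 of the 9 and negative for 3, the lowest at -2.37. Slc17a6, a glutamate transporter gene, was at 121.2, 17.0 and 64.9 RPKM with ASA and 280.2, 216.2 and 307.8 RPKM with DMSO (limma adjusted p = 0.0511). Myeloid markers (3 of 10, with Ptprc, Csf1r and Aif1 among those not analysed here) summed to 69.6 to 240.2 RPKM with ASA and 22.2 to 38.3 with DMSO, and Cd68 rose 29.6-fold and Itgax 18.1-fold (limma adjusted p = 0.0126 and 0.00906). The third of them, Cd14, averaged 10.9 RPKM with ASA and 24.2 with DMSO and did not pass the test (limma adjusted p = 0.165). Fibroblast markers (4 of 8) summed to 3623 to 6537 RPKM with ASA and 3065 to 3833 with DMSO. Of these, Dcn rose 2.49-fold and Pdgfrb 3.89-fold (limma adjusted p = 0.0213 and 0.0372). The log2 difference was positive for 2 of the 4 and negative for the other 2, the lowest at -0.23. Glial markers (3 of 7) summed to 7.12 to 16.0 and 4.49 to 6.09, and the 1 endothelial marker of 6 to 0.693 to 0.825 and 0.311 to 0.865.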

How the data were processed

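Per the labels' protocols, polyadenylated RNA of RC-4B/C cells was prepared as strand-marking libraries. Tools listed without role in the submitters' processing notes are edgeR 3.26.8, TopHat2 2.1.0 with Bowtie2, cutadapt 1.14 and Trim Galore 0.4.1, and the build is Rnor_6.0. The sources used here do not name the counter, the annotation release or whether strand was used, so reads of antisense partners cannot be told apart.

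The deposited values are log2 RPKM per exon and library. After undoing the log, a constant equal to 0.25 read at the mean depth was removed. Then 95.7% to 96.8% of the values in a library were whole reads within 0.02 read, and depth was 66492446 to 94486062 reads. Every row had at least 4 libraries over 10 reads. Gene RPKM is the reads of all listed exons over their summed length.

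The fit was limma 3.58.1 in R 4.3.3 (lmFit, eBayes with trend, two-sided) on log2(RPKM + 0.1) for genes that averaged 0.5 RPKM or more, at a Benjamini-Hochberg adjusted p under 0.05, without covariates. The values are not counts, so no count model was the main test. A fold is 2 to the power of the log2 difference, and the pseudocount understates the change of low genes. Alternatives changed the pseudocount, the filter, the scaling or the variance model, weighted the libraries, or left each out. The voom method on the recovered reads and the ratio of mean RPKM were added after seeing the data.

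Arc, the 8 pathway lists and the 6 marker lists were chosen with earlier results of these data known. The rule for named genes took Arc, the 8 genes nearest in profile, a set of immediate early and regulatory genes whatever their result, up to 4 members of each list by smallest p and 4 neighbours on each side. Jun, Klf6, Maff, Crem, Plk3, Cga, Pcsk2, Gad1, Map2, Nefm, Slc17a6, Cd68, Itgax, Cd14, Dcn and Pdgfrb lie outside it or complete a count, and were chosen after their values were seen. A few genes within the rule are not reported here. Genes of the lists that the table did not give were not analysed here.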

Additional observations from a re-analysis of the deposited data

How the results depend on the processing

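Arc was lower with ASA under every setting tried, from 6.48-fold without ASA replicate 2 to 35.6-fold without ASA replicate 1, and 10.2-fold to 16.5-fold under the other pseudocounts, scalings and fits with all 6 libraries. The ratio of mean RPKM gave 7.62. Counts of calls depended on the libraries. The genes called ranged from 0 to 2618 when 1 library was left out. With library weights they numbered 5745 of the 12502 tested, against 1400. The called activity-regulated factors ranged from 0 to 12 when 1 library was left out, and the effectors from 0 to 8. With library weights 18 of 22 factors and 14 of 30 effectors were called, against 8 and 5. Both list counts were highest in the fits that also called the most genes over the whole table. Of the 8 genes nearest to Arc, 1 was also among the nearest by Pearson's r. Some uncalled log2 differences changed sign. With library weights Fos was at 0.0266 and Dennd3 at 0.0136. When 1 library was left out, Fos ranged from -0.22 to 0.13, Nr4a1 from -0.19 to 0.33, Creb1 from -0.16 to 0.16, Ptk2 from -0.35 to 0.0114 and Slurp1 from -0.77 to 0.15. The cause was not tested, and a fit without 1 library has fewer samples. Of 64 named genes tested, 25 were called, and those that lost the call numbered 25 without ASA replicate 3 or DMSO replicate 3, 23 without DMSO replicate 1, 15 without DMSO replicate 2, 3 without ASA replicate 1 and 0 without ASA replicate 2. With the median exon or the longest exon as the gene value, Arc is the same by construction, since it has 1 listed exon. No paired analysis was possible because the labels give no replicate numbers shared between the groups. With 75 reads, depth limits Arc in ASA replicate 2 to the interval given above.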
